A study of Homo sapiens with 4 samples.

Results

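A set of 10 genes of the insulin-like growth factor (IGF) axis were followed in 2 human lines of neuroendocrine tumours whose DAXX was knocked down. They were the binding proteins IGFBP1 to IGFBP7, the receptors IGF1R and IGF2R and the ligand IGF2, chosen by gene symbol with the differences between lines and after knockdown already known, so both differences are described without a test. Of these 10 genes, 9 had a probe set annotated to them alone, out of 19775 such genes in the series. They had 24 probe sets of their own. The 3 probe sets that hold IGF2 are annotated also to the read-through transcript INS-IGF2, so they are given under both names and kept out of the counts.

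The samples were total RNA from QGP1, a line from a neuroendocrine tumour of the pancreas, and NCI-H727, from one of the bronchus. DAXX is a chaperone of histone H3.3. Cells of each line were electroporated with DAXX siRNA (the DAXX-KD arrays) or, as control, with a universal negative control siRNA, both at a final 50 nM. Each of the 4 conditions gave 1 array, so no value within a line has a replicate. No group carried a further allele or agent, and 2 DAXX siRNAs are named without a statement on whether they were pooled. The labels also speak of ALDH high QGP1 cells for every array, and the source field of the NCI-H727 arrays names QGP1, so the line names rest on the titles.

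Markers of the tissue of origin went against these titles in part. NKX2-1, a transcription factor of lung and thyroid, read 8.77 and 8.38 (log2, control and DAXX-KD) on the QGP1-labelled arrays but 3.35 and 3.23 on the NCI-H727-labelled ones. SFTA3, a gene of lung epithelium, read 10.46 and 10.17 against 2.70 and 2.27, and the bronchial peptide GRP 12.80 and 11.76 against 5.37 and 4.12. NKX2-2, a factor of islet cells, read 4.80 and 5.93 on the QGP1-labelled arrays and 9.17 and 9.25 on the NCI-H727-labelled ones. SST, somatostatin of islets, was higher on the QGP1-labelled arrays (13.83 and 13.07 against 11.87 and 11.80), and the islet factors PAX6 (6.64 and 6.77 against 5.12 and 5.67) and ISL1 (9.61 and 9.46 against 8.82 and 8.94) were higher there too. PDX1 read 5.23 to 5.54 on all 4 arrays. Among bronchial markers CALCA (13.46 to 13.74) and FOXA2 (10.94 to 11.21) were about level between the lines. The islet hormones GCG and IAPP lay between 2.70 and 3.71 on all 4 arrays. Whether lines were exchanged was not tested, and the arrays are called QGP1-labelled and NCI-H727-labelled throughout; a direction between lines holds for the labels only. DAXX itself was lower in both knockdown arrays, with log2 differences of -1.96 in the QGP1-labelled pair and -1.21 in the NCI-H727-labelled pair at probe set 201763_s_at and of -2.14 and -0.83 at 216038_x_at. In the NCI-H727-labelled pair the second probe set was thus 1.78-fold lower and the first 2.31-fold. Differences within a labelled pair assume that both arrays of a pair hold the same line.

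IGF1 and IGF2 are secreted peptides that signal through IGF1R, a receptor tyrosine kinase, to the PI3K and AKT pathway. IGF2R, the mannose 6-phosphate receptor, takes up IGF2 for breakdown in lysosomes. The IGF binding proteins hold the ligands in the extracellular fluid, and proteases release the ligands by cutting them; IGFBP7 binds IGFs only weakly. IGF2 is made by some neuroendocrine tumours.

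The stretches upstream of 3 genes that the results turn on are shown first: IGFBP5, the member that differed most between DAXX-KD and control, and IGFBP3 and IGFBP6, each of which separated the lines. Each is the 250 bases before the start of the gene on the gene's own strand, 5′ to 3′, from RefSeq on GRCh38.p14. They lie at chr2:216695550-216695799 (minus strand, IGFBP5), chr7:45921273-45921522 (minus strand, IGFBP3) and chr12:53097417-53097666 (plus strand, IGFBP6). Capitals mark the letters TATNNA within the last 40 bases, a loose form of the TATA box, on the printed strand.
IGFBP5: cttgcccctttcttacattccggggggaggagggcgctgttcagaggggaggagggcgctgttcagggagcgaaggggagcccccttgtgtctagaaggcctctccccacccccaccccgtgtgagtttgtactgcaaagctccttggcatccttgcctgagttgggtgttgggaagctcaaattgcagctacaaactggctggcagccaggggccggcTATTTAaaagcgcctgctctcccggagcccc
IGFBP3: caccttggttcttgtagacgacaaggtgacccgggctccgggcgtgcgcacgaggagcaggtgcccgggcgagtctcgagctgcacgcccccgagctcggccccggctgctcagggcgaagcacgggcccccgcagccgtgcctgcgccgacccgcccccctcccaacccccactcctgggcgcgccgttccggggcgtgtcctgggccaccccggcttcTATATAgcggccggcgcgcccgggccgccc
IGFBP6: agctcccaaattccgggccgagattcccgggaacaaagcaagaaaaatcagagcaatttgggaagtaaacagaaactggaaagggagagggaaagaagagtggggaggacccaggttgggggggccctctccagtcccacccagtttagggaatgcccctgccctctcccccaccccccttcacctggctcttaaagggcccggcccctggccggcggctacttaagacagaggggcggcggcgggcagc
IGFBP5 and IGFBP3 each held TATNNA there, with its first base 31 and 30 bases before the start, and IGFBP4 held it 29 bases before; IGFBP6 did not. Of all 35116 promoter windows, 7.88% held it in the last 40 bases. On both strands of the whole 250 bases, TATNNA stood in 45.6% of windows. GGGCGG, the GC box, stood in 42.6% of windows on either strand. It occurred 2 times in the IGFBP3 window, 1 time in that of IGFBP6 and 0 times in that of IGFBP5. The IGFBP3 window held 32 CpG pairs and those of IGFBP5 and IGFBP6 held 8 and 9, beside a median of 11 over all windows. These letters describe the windows and say nothing of binding in these cells. In the RefSeq gene table IGFBP1 and IGFBP3 are neighbouring coding genes, as are IGFBP2 and IGFBP5.

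Expression is given as the log2 value that RMA makes from the probes of a probe set, and a level is compared only with the same probe set on another array. A probe set counts as past the filter where its mean over the 4 arrays is at or above 4.85, the 40th percentile of all probe sets. Of the 24 probe sets of the members, 18 passed and all 9 genes kept at least 1. The 6 dimmer ones, of IGFBP1, IGFBP7, IGF1R and IGF2R, read 2.32 to 5.06. IGFBP1 and IGFBP3 passed through the NCI-H727-labelled arrays alone or nearly so, and a probe set that passes only through its high arrays had to differ. RMA compresses differences near background, so where a value lies under 4.85 no fold is printed for it and a log2 difference can understate the gap; counts at a fold threshold do include such values. The array medians lay between 5.31 and 5.36.

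**Figure D1:**
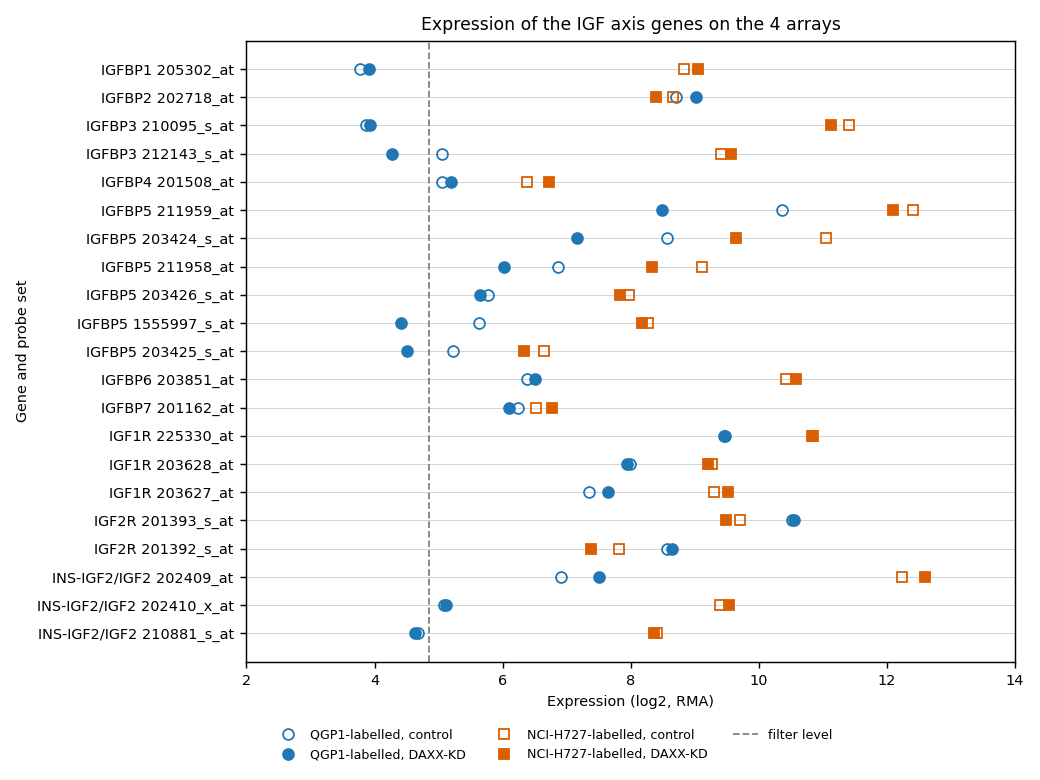
Log2 RMA expression (horizontal axis) of the 18 member probe sets past the filter and the 3 probe sets shared by INS-IGF2 and IGF2 (vertical axis); each point is 1 array, circles QGP1-labelled and squares NCI-H727-labelled, open control and filled DAXX-KD, with the filter level dashed. The squares lie to the right of the circles for IGFBP1, IGFBP3, IGFBP4, IGFBP5, IGFBP6 and IGF1R, and to the left for IGF2R.

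Among the members, IGFBP5 was the gene that was lower in the DAXX-KD arrays by 2-fold or more. All 6 of its probe sets were lower in both lines in the deposited values, though by very different amounts, and after a second quantile normalization 1 of them, 1555997_s_at, was 0.02 higher in the NCI-H727-labelled pair. IGFBP5 is secreted, binds to matrix as well as to IGFs, and cell growth can be raised or lowered by it. Probe set 211959_at read 10.36 on the QGP1-labelled control and 8.49 on DAXX-KD, and 12.40 and 12.09 on the NCI-H727-labelled pair. That is 3.66-fold lower in the first pair and 1.24-fold lower in the second. Probe set 203424_s_at read 8.57 and 7.16 in the QGP1-labelled pair and 11.05 and 9.65 in the NCI-H727-labelled pair, 2.66-fold and 2.64-fold lower. Hence the probe set with the highest mean separated the lines' knockdown differences and the next one did not.

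Of the other 4 IGFBP5 probe sets, 2 had like differences in both pairs (211958_at and 203426_s_at) and 2 a larger one in the QGP1-labelled pair (1555997_s_at and 203425_s_at). Probe set 211958_at went from 6.86 to 6.02 and from 9.11 to 8.33, which is 1.79-fold and 1.71-fold lower. Probe set 203426_s_at hardly differed, at 5.77 and 5.65 in the QGP1-labelled pair and 7.97 and 7.83 in the other. Probe set 1555997_s_at read 5.63 and then 4.41, below the filter, in the QGP1-labelled pair, and from 8.27 to 8.17 in the NCI-H727-labelled pair. Probe set 203425_s_at went from 5.22 to 4.51 and from 6.64 to 6.34. Over the 6 probe sets the difference ran from -1.87 to -0.12 (median -1.03, SD 0.61) in the QGP1-labelled pair and from -1.40 to -0.10 (median -0.30, SD 0.50) in the NCI-H727-labelled pair. Across all genes with several probe sets past the filter, the SD between probe sets of a gene was 0.20 and 0.28 in these pairs. In these pairs IGFBP5 probe sets thus disagreed more than those of a usual gene, but IGFBP5 also differed more than most genes there. Between lines the SD of IGFBP5 was 0.43 in the control pair and 0.79 in the DAXX-KD pair, beside 0.65 and 0.72 across all such genes. The probe sets share their RNA, so they are not replicates.

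**Figure D2:**
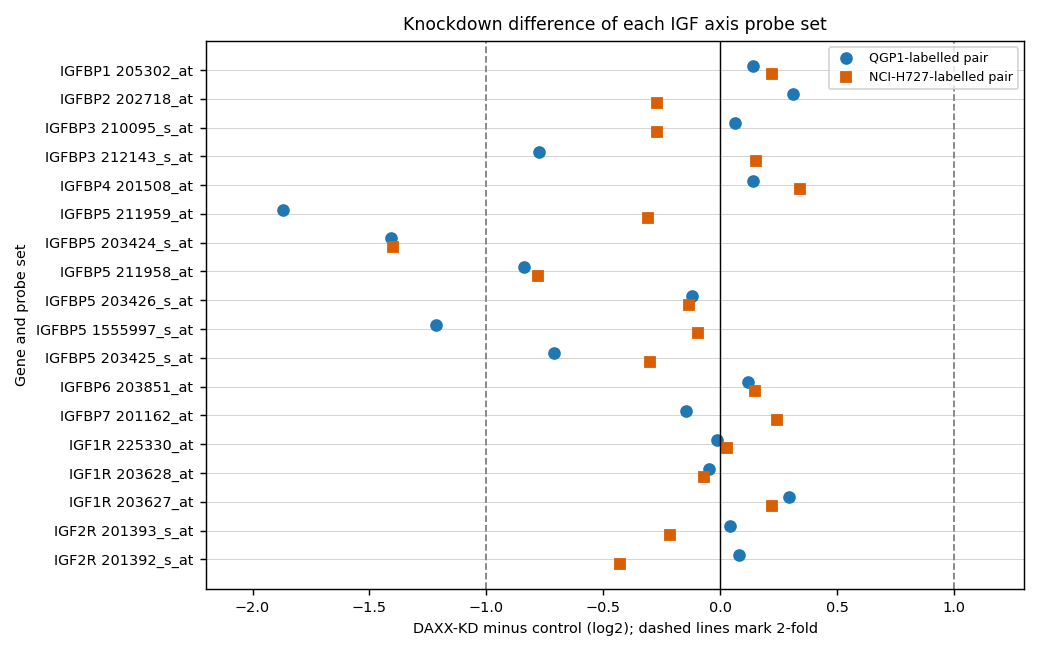
Log2 difference between the DAXX-KD and the control array (horizontal axis) for the 18 member probe sets past the filter (vertical axis), with circles for the QGP1-labelled pair and squares for the NCI-H727-labelled pair; each point is a difference between 2 single arrays and dashed lines mark 2-fold. Points beyond the left dashed line belong to IGFBP5: 3 circles and 1 square.

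Counted over the 18 probe sets, 3 were at least 2-fold lower in the QGP1-labelled pair and 0 higher, where 0.213% of all 27215 probe sets past the filter were that much lower and 0.195% higher. In the NCI-H727-labelled pair 1 was at least 2-fold lower and 0 higher, where the background was 1.68% and 0.165%. At 1.5-fold, 6 were lower in the QGP1-labelled pair (background 1.41%) and 2 in the other (6.42%). Nothing is read from these shares, since the members were chosen with this contrast known and the probe sets past 2-fold are all of 1 gene. The median over the 18 probe sets was -0.03 in the QGP1-labelled pair and -0.12 in the NCI-H727-labelled pair, beside 0.01 and 0.00 over all probe sets.

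Apart from IGFBP5, the members' 12 other probe sets differed between DAXX-KD and control by -0.78 to 0.31 in the QGP1-labelled pair and by -0.43 to 0.34 in the NCI-H727-labelled pair. The lowest of these was 1 of the 2 probe sets of IGFBP3, the main carrier of IGFs in blood. It read 5.05 and then 4.27, below the filter, in the QGP1-labelled pair (212143_s_at), while the other read 3.87 and 3.94 (210095_s_at). IGFBP2, a binding protein of fetal tissue and many tumours, read 8.71 and 9.02 in the QGP1-labelled pair and 8.67 and 8.40 in the NCI-H727-labelled pair. Its knockdown difference was therefore 0.31 in one pair and -0.27 in the other, and without replicates neither can be set against an error. IGFBP4, which the protease PAPPA cuts, differed by 0.14 and 0.34, and IGFBP7 by -0.15 and 0.24 (201162_at).

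The receptors differed little after knockdown. The 3 IGF1R probe sets past the filter differed by -0.05 to 0.30 in the QGP1-labelled pair and by -0.07 to 0.22 in the other. IGF2R differed by 0.04 and 0.08 in the QGP1-labelled pair and by -0.21 and -0.43 in the NCI-H727-labelled pair (201393_s_at and 201392_s_at). Both of its probe sets thus lay slightly higher in one pair and lower in the other.

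Between the lines IGFBP1, IGFBP3, IGFBP4, IGFBP5 and IGFBP6 were at least 2-fold higher on the NCI-H727-labelled arrays, in the control and in the DAXX-KD pair, while IGFBP2 and IGFBP7 were not. IGFBP3 was high in one line and near background in the other. Probe set 210095_s_at read 3.87 (control) and 3.94 (DAXX-KD) on the QGP1-labelled arrays and 11.40 and 11.13 on the NCI-H727-labelled ones. The second probe set, 212143_s_at, read 5.05 and 4.27 against 9.41 and 9.56. In both probe sets the QGP1-labelled arrays were near or under the filter level and the NCI-H727-labelled arrays far above it.

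IGFBP1, an insulin-regulated binding protein made mainly by liver and decidua, followed the same order at probe set 205302_at. It read 3.78 and 3.91 on the QGP1-labelled arrays and 8.83 and 9.05 on the NCI-H727-labelled ones, so the QGP1-labelled values lay under the filter level. Its other probe set, 237989_at, read 2.49 to 2.75 on all 4 arrays. IGFBP6, which prefers IGF2 over IGF1, read 6.38 and 6.50 on the QGP1-labelled arrays and 10.43 and 10.58 on the NCI-H727-labelled ones. That is 16.5-fold higher in the control pair and 16.9-fold higher in the DAXX-KD pair, with both lines past the filter level.

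IGFBP5 was higher on the NCI-H727-labelled arrays at all 6 probe sets, by 1.42 to 2.64 in the control pair. In the DAXX-KD pair the 4 probe sets with every value past the filter level were 2.18 to 3.60 higher. IGFBP4 read 5.06 and 5.20 against 6.38 and 6.72, which is 2.50-fold and 2.87-fold higher. For IGFBP2, by contrast, the control arrays were nearly level, at 8.71 on the QGP1-labelled and 8.67 on the NCI-H727-labelled array, with 9.02 and 8.40 after knockdown. IGFBP7 read 6.24 and 6.10 against 6.52 and 6.76. These 2 members differed by under 1.6-fold in either pair.

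IGF1R was higher on the NCI-H727-labelled arrays at its 3 probe sets past the filter. The brightest, 225330_at, read 9.47 and 9.46 on the QGP1-labelled arrays and 10.82 and 10.85 on the NCI-H727-labelled ones, 2.55-fold and 2.63-fold higher. The 2 others were 2.42-fold and 3.85-fold higher in the control pair (203628_at and 203627_at). IGF2R went the other way. It read 10.51 and 10.56 on the QGP1-labelled arrays and 9.70 and 9.49 on the NCI-H727-labelled ones (201393_s_at), 1.75-fold and 2.09-fold lower. The second probe set was 1.68-fold and 2.39-fold lower (201392_s_at).

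The probe sets shared by INS-IGF2 and IGF2 were all much higher on the NCI-H727-labelled arrays. Probe set 202409_at read 6.91 and 7.50 on the QGP1-labelled arrays and 12.23 and 12.59 on the NCI-H727-labelled ones, 5.31 and 5.09 higher. Probe set 202410_x_at was 4.31 and 4.41 higher, and 210881_s_at read 4.69 and 4.63, under the filter level, against 8.40 and 8.36. After knockdown 202409_at was 0.58 higher in the QGP1-labelled pair and 0.37 higher in the other, while the 2 others differed by -0.06 to 0.13. These probes do not tell IGF2 from the read-through. INS, which the read-through also spans, read 3.85 to 3.99 on all 4 arrays.

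**Figure D3:**
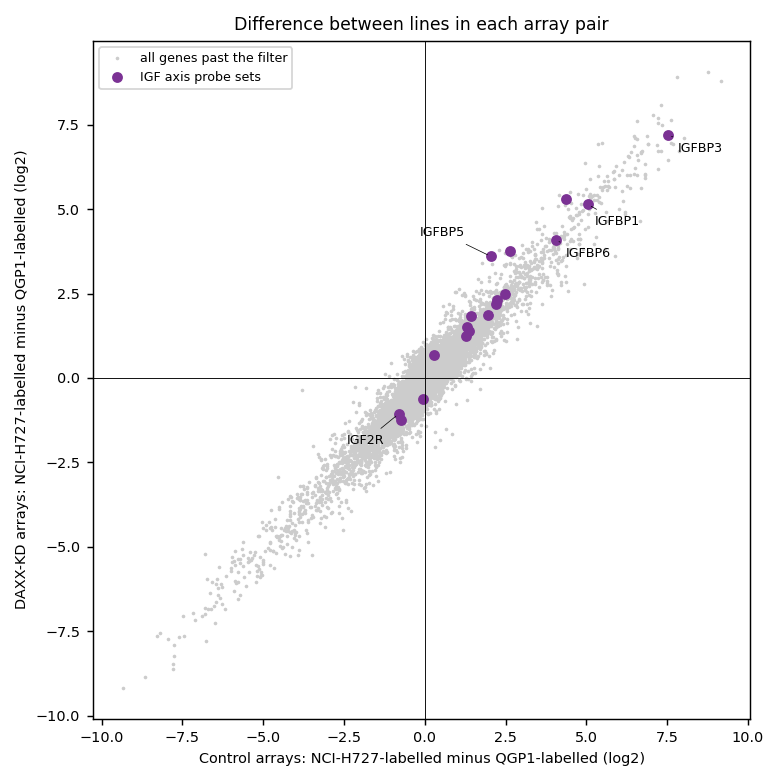
NCI-H727-labelled minus QGP1-labelled on the log2 scale in the control arrays (horizontal axis) and in the DAXX-KD arrays (vertical axis); grey points are the 14648 genes past the filter, each by its brightest probe set, and purple points the 18 member probe sets. IGFBP1, IGFBP3 and IGFBP6 lie at the upper right, with differences over 4 in both array pairs.

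In all, 14 of the 18 member probe sets were at least 2-fold higher on the NCI-H727-labelled arrays in both pairs and 0 were lower. Among all probe sets past the filter 8.26% were higher by that rule and 10.2% lower. The 14 belonged to 6 genes, each with every probe set past the filter on the higher side: IGFBP1, IGFBP3, IGFBP4, IGFBP5, IGFBP6 and IGF1R. Those of IGFBP1 and IGFBP3 passed the filter through the NCI-H727-labelled arrays alone or nearly so, and thus had to differ. The median over the 18 was 1.99 in the control pair and 2.03 in the DAXX-KD pair, beside 0.00 and 0.04 over all probe sets. As with the knockdown, the members were chosen with this contrast known, and their counts are a description. In RNA from a culture, fewer cells that make a transcript and less of it per cell cannot be told apart.

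Binding proteins are also products of fibroblasts and endothelium, so markers of other cell types were read on the same arrays. Of 8 fibroblast markers 4 lay under the filter level on all 4 arrays: COL1A2, COL3A1, LUM and FAP. The summed linear signal of the list was 375 and 351 on the QGP1-labelled arrays and 398 and 415 on the NCI-H727-labelled ones. The 6 endothelial markers summed to 183 and 235 against 306 and 362, and the 6 leukocyte markers to 276 and 282 against 620 and 679. KDR (4.45 and 4.94 against 6.98 and 7.17) and LYZ (6.85 and 7.04 against 8.80 and 8.90) made most of these gaps, while the pan-leukocyte marker PTPRC read at most 3.68 on all 4 arrays. Of 9 neuroendocrine markers measured, 9 passed the filter, with CHGA at 11.14 to 12.27 and INSM1 at 10.98 to 11.39. On the NCI-H727-labelled arrays 3 of the 9, CHGA, CHGB and INSM1, were higher in both pairs and the 6 others lower, NCAM1 by the most (8.28 and 8.38 against 5.77 and 5.62). The part of other cells in the differences between lines was not tested.

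Genes whose profile over the 4 arrays was most like that of IGFBP5 at 211959_at were found by the distance between profiles, each centred on its own mean. The 5 nearest were the long noncoding RNA DRAIC (distance 0.52 on the log2 scale), AGT, which encodes angiotensinogen (0.77), LOC101928419 (0.78), the metalloreductase STEAP2 (0.78) and G0S2, an inhibitor of the lipase ATGL (0.86). DRAIC read 8.85 and 7.71 on the QGP1-labelled arrays and 11.30 and 11.05 on the NCI-H727-labelled ones. The other 4 each had a QGP1-labelled DAXX-KD value under the filter level, from 3.32 (STEAP2) to 4.75 (G0S2). Their knockdown differences ran from -1.18 to -0.79 in the QGP1-labelled pair and from -0.87 to 0.11 in the other. For IGFBP5 at 211959_at these were -1.87 and -0.31. The likeness rests on 4 arrays and is a description.

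The wider pathway was read from 66 genes in 8 lists, of which 61 had a probe set of their own and 54 passed the filter. A limma fit of line and treatment over all 14648 genes tested these genes, each by its brightest probe set. That fit has 2 arrays per line, which differ in treatment, and 1 residual degree of freedom. To this limma adds a variance pooled over all genes, which counts as 4.18 further degrees of freedom. Its p-values thus weigh a difference against that pooled variance and against how alike the gene's control and DAXX-KD pairs were. They do not measure a spread between replicate cultures. Between lines 18 of the 54 were higher and 11 lower on the NCI-H727-labelled arrays at an adjusted p of 0.05, together 53.7%. Among all genes 48.3% were called, 23.2% higher and 25.1% lower. The share of the lists lay near that background. Nothing is read from it, since the lists were chosen with earlier results of these data known.

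Of 8 genes listed for IGF2 RNA binding and imprinting, 7 had a probe set and 6 passed the filter; limma called 4 of these higher and 1 lower on the NCI-H727-labelled arrays. IGF2BP1, which binds IGF2 messenger RNA, read 5.67 and 5.55 on the QGP1-labelled arrays and 8.03 and 7.98 on the NCI-H727-labelled ones, a limma difference of 2.39 (SE 0.13, adjusted p = 0.000136, higher in 2 of 2 pairs). PLAG1, a zinc finger activator of IGF2 transcription, read 4.28 and 5.40 against 6.78 and 7.48 (difference 2.29, SE 0.16, adjusted p = 0.000304 in limma, higher in 2 of 2 pairs). The QGP1-labelled control value of PLAG1 lay under the filter level. IGF2BP3 went the other way and was lower by 0.73 in the limma fit (SE 0.17, adjusted p = 0.0185, lower in 2 of 2 pairs; not called with treatment left out of the fit, adjusted p = 0.0610). The call of HMGA2 (0.71 higher) was lost with its probe sets averaged (0.12, adjusted p = 0.447 in limma). PLAGL1, under the filter, was called lower in the limma fit without a filter (difference -0.72, adjusted p = 0.0121).

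Among proteins related to the binding proteins, 3 of 6 past the filter were called higher and 3 lower. CCN2, connective tissue growth factor, read 7.28 and 6.75 against 9.32 and 8.72. IGFBPL1 read 7.71 and 7.92 against 5.23 and 5.30, and the secreted protease HTRA1 7.67 and 6.73 against 4.74 and 4.92. The NCI-H727-labelled control value of HTRA1 lay under the filter level and its DAXX-KD value just above it. Thus IGFBPL1 and HTRA1 were lower on the very arrays on which most binding proteins were higher.

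Of the 9 proteases and inhibitors past the filter, 2 were called higher and 1 lower. ADAM9, a membrane protease, was 3.40-fold and 3.31-fold higher on the NCI-H727-labelled arrays in the control and DAXX-KD pairs. STC1, which like STC2 inhibits PAPPA, was 3.90-fold and 2.43-fold lower at 204595_s_at. On the log2 scale it differed by -1.68 and -1.54 at 204597_x_at, but by -0.18 and -0.60 at 204596_s_at. PAPPA, the protease of IGFBP4 and IGFBP5, read 5.39 and 5.08 against 5.55 and 5.78 and was not called. That is the brightest of its 11 probe sets (201982_s_at), and most of them lay under the filter.

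Of 4 ligands and receptors outside the members that passed the filter, 0 were called higher and 1 lower, TMEM219, a receptor of IGFBP3 (limma difference -0.47, adjusted p = 0.0365, at 224981_at). Its other probe set, 228513_at, went the other way, 0.45 and 0.66 higher, and with both averaged TMEM219 was not called (0.04, adjusted p = 0.792 in limma). IGF1 read 5.67 and 5.46 on the QGP1-labelled arrays and 5.60 and 5.97 on the NCI-H727-labelled ones at 211577_s_at, and 3 of its 5 probe sets lay under the filter. INSR, the insulin receptor, read 8.73 and 8.74 against 8.85 and 8.25. GHR, the growth hormone receptor that drives IGF1 in liver, had a mean under the filter but stood at 7.15 and 5.99 on the QGP1-labelled arrays, against 3.05 and 2.56. In the limma fit without a filter GHR was called lower (difference -3.76, SE 0.20, adjusted p = 0.000275, lower in 2 of 2 pairs), and its NCI-H727-labelled values were under the filter level. INSR and IGF1 were not called between lines.

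Downstream, 4 of 11 adaptors and feedback genes were called higher and 3 lower, and 4 of 15 genes of the PI3K, AKT, FOXO and mTOR list higher and 2 lower. GRB10 was not called at its brightest probe set, 209409_at (0.77 and 0.01 higher). It was 2.20 and 2.16 higher at 209410_s_at and 2.33 and 2.25 higher at 210999_s_at. With probe sets averaged, limma called GRB10 higher (1.38, adjusted p = 0.000321), while the call of PTPN1 as higher was lost (0.18, adjusted p = 0.277). SOCS2, a feedback inhibitor of growth hormone signalling, read 8.08 and 7.99 against 4.71 and 5.03 (limma difference -3.17, SE 0.16, adjusted p = 0.000106, lower in 2 of 2 pairs). Its NCI-H727-labelled control value lay under the filter level and the DAXX-KD value just above it. FOXO1, a transcription factor that AKT keeps out of the nucleus, read 6.57 and 7.15 against 8.51 and 8.75 (1.76, SE 0.15, adjusted p = 0.000596 in limma, higher in 2 of 2 pairs). IRS1 read 8.32 and 8.33 against 8.04 and 7.70 and was not called (adjusted p = 0.0541 in limma), though 3 of the alternative fits called it lower, with adjusted p of 0.0311 to 0.0463. IRS2 read 11.30 and 11.15 against 11.74 and 11.76 and was called higher (0.53, SE 0.13, adjusted p = 0.0240 in limma, higher in 2 of 2 pairs).

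**Figure D4:**
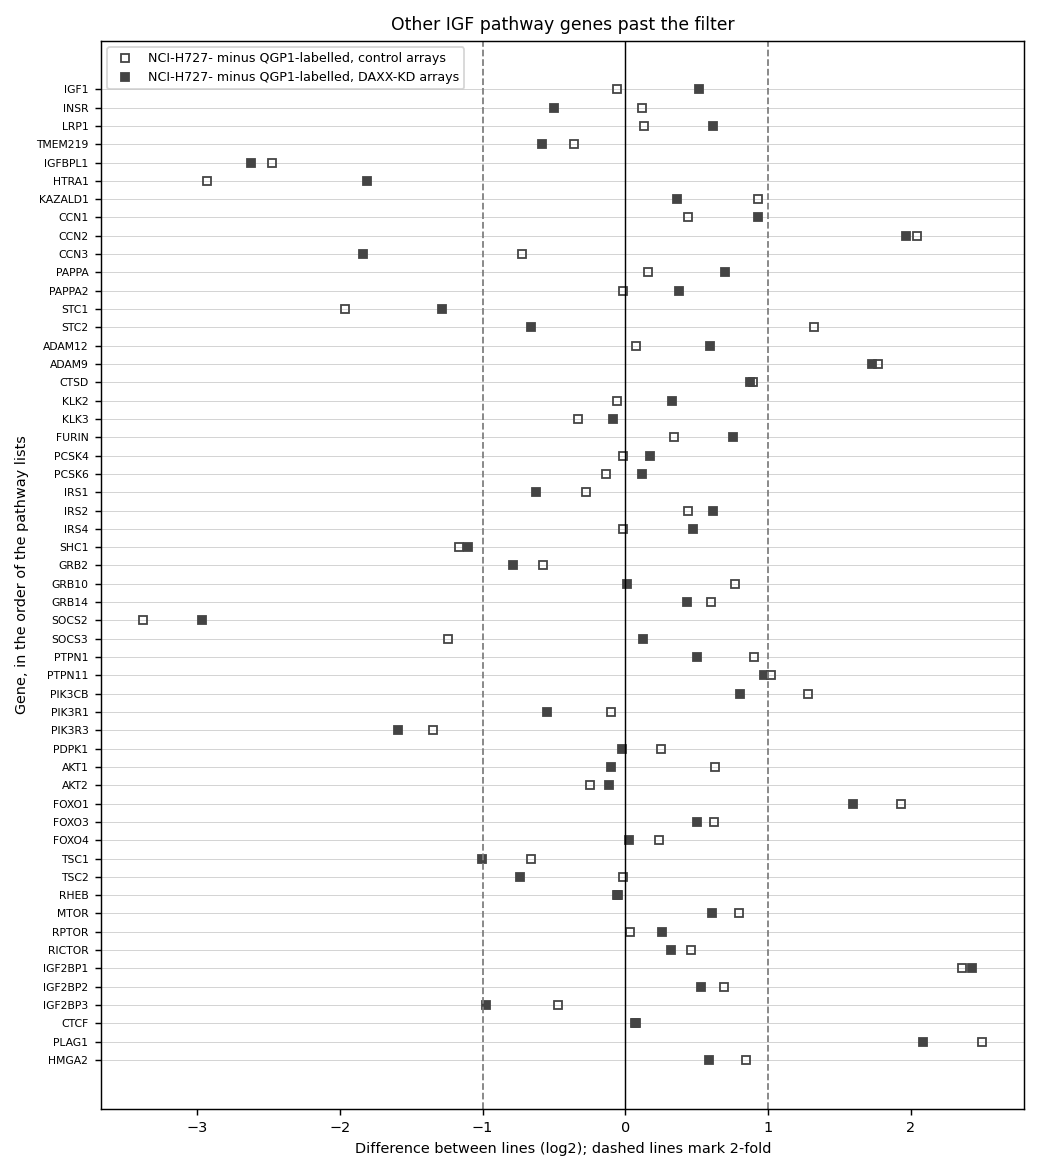
NCI-H727-labelled minus QGP1-labelled on the log2 scale (horizontal axis) for the 54 other IGF pathway genes past the filter (vertical axis, in list order), open squares for the control arrays and filled squares for the DAXX-KD arrays; dashed lines mark 2-fold. IGF2BP1, PLAG1, CCN2, FOXO1 and ADAM9 lie beyond 2-fold on the right in both pairs, and SOCS2, IGFBPL1, HTRA1, STC1, PIK3R3 and SHC1 on the left.

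After knockdown STC2 and PLAG1 were the genes past 2-fold among the 54, both higher in the QGP1-labelled pair. The limma fit over both lines called 0 of the 54 genes; it called 0% of all genes after adjustment, so its 0 says nothing of the pathway in particular. Before adjustment, 7 of the 54 had a p under 0.05, beside 6.92% of the genes fitted. By size, 2 of the 54 were at least 2-fold higher and 0 lower in the QGP1-labelled pair, and 0 either way in the NCI-H727-labelled pair; over all genes 0.259% were that much higher and 0.232% lower in the first pair, and 0.177% higher and 1.32% lower in the second. Nothing is read from the share of the 2 genes higher in the first pair, since the lists were chosen with earlier results of these data known. The list medians were 0.06 and 0.05, beside 0.02 and 0.02 over all genes.

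STC2 and PLAG1 are known to act on IGF members, STC2 through PAPPA and PLAG1 through IGF2. STC2, the PAPPA inhibitor, read 7.02 and 8.52 in the QGP1-labelled pair and 8.34 and 7.86 in the other. PLAG1 read 4.28, under the filter level, and 5.40 in the QGP1-labelled pair and 6.78 and 7.48 in the NCI-H727-labelled pair, so it was higher after knockdown in both (limma difference 0.91, SE 0.16, adjusted p = 0.445, higher in 2 of 2 pairs). It has 1 probe set.

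At 1.5-fold, 2 of the 54 were higher and 2 lower in the QGP1-labelled pair, and 3 higher and 5 lower in the NCI-H727-labelled pair, where 1.74%, 1.32%, 1.6% and 4.96% of all genes were. HTRA1 was 1.92-fold lower in the QGP1-labelled pair and read 4.74, under the filter level, and 4.92 in the other. SOCS3, a feedback inhibitor of insulin and cytokine signalling, was 1.64-fold lower in the QGP1-labelled pair and 1.57-fold higher in the other at 227697_at, but level at 206360_s_at. GHR, under the filter, was 2.23-fold lower in the QGP1-labelled pair. In the NCI-H727-labelled pair the genes lower by this size were AKT1 (1.85-fold), IGF2BP3 (1.63-fold), INSR (1.52-fold), CCN2 (1.52-fold) and GRB10, an inhibitory adaptor of both receptors (1.51-fold). STC1 was 1.89-fold higher there at 204595_s_at, but differed by only 0.38 at 204597_x_at and 0.15 at 204596_s_at on the log2 scale.

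Other probe sets of these genes were read too. All 4 INSR probe sets past the filter were lower in the NCI-H727-labelled pair, by 0.36 to 0.81, as were the 3 of IGF2BP3, by 0.71 to 0.99. The 2 other GRB10 probe sets past the filter were higher there, by 0.27 and 0.31, so the GRB10 direction depends on the probe set. The second STC2 probe set was 1.41 higher in the QGP1-labelled pair and 0.17 higher in the other.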

How the data were processed

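Total RNA from 4 cultures was hybridised to 4 one-colour Affymetrix arrays after 3' IVT labelling. Per the submitters' processing notes, RMA (affy 1.40.0, R 3.0.3) gave the log2 values that the authors deposited. It removes background, quantile-normalizes arrays and fits 1 value per probe set; a shift shared by most genes would be removed. The platform annotation named the 54613 probe sets: 41091 had 1 gene symbol, 1801 several and 11721 none. 41037 Entrez identifiers matched RefSeq GRCh38.p14, and 0 symbols needed an update. The fit used each gene's probe set of highest mean, past the 40th percentile of means. Line and treatment were fitted with limma 3.58.1 (R 4.3.3), two-sided, Benjamini-Hochberg adjusted over 14648 genes. The fit was tried on simulated data with equal noise in every gene and few changed genes. That setting is unlike these arrays, so it gives no error rate for them. Differences per line were counted at 2-fold. The number of arrays limits precision, and nothing says that cultures were repeated.

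Members and lists were chosen with earlier results of these data known. Members were described at every probe set. Pathway genes were named when 1.5-fold apart in either line, among the 8 widest between lines, or as IGF1, INS, INSR, IRS1 and IRS2. PAPPA, TMEM219, HMGA2, PLAGL1, PIK3R3, PTPN1 and SHC1 were named after their values were seen. 5 list genes are not analysed here. The alternatives tried were no filter, the 60th percentile, averaged probe sets, an intensity trend, a second quantile normalization, median centring, leaving out x_at and s_at probe sets, a 1.5-fold threshold, and fits without line or treatment.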

Additional observations from a re-analysis of the deposited data

Results flagged for a closer look

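SOCS3, a feedback inhibitor of cytokine and insulin signalling, was past 1.5-fold in opposite directions after knockdown: -0.72 in the QGP1-labelled pair (6.64 to 5.92) and 0.65 in the NCI-H727-labelled pair (5.39 to 6.04) at probe set 227697_at. The difference between the pairs was not tested, since each rests on 1 array per condition. Its other probe set past the filter, 206360_s_at, differed by -0.01 and -0.06.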

How the results depend on the processing

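Without the x_at and s_at probe sets, whose probes can bind other transcripts, 10 member probe sets were left, and the counts at least 2-fold lower after knockdown became 1 in the QGP1-labelled pair and 0 in the NCI-H727-labelled pair; 8 were higher on the NCI-H727-labelled arrays in both pairs. At a 1.5-fold threshold 6 and 2 probe sets were lower after knockdown, and 2, both of IGF2R, were lower on the NCI-H727-labelled arrays. A second quantile normalization, median centring and no filter left the member counts as they were. RMA had already quantile-normalized the arrays and their medians lay between 5.31 and 5.36, so normalization and centring could change little. The largest move of a member difference was 0.165. Of 144 recomputed member differences 3 changed sign, each of 0.1 or less in size: IGFBP5 at 1555997_s_at in the NCI-H727-labelled knockdown pair (-0.10 to 0.02 with a second quantile normalization) and IGF1R at 225330_at in both knockdown pairs with median centring, while 0 moved by more than the spread between probe sets of a gene. Pathway genes called between lines by limma numbered 17 to 19 higher and 10 to 13 lower over the alternatives, and 0 were called by knockdown in each. Over all genes the knockdown fit called 5 with an intensity trend and 0 in the other alternatives. The knockdown fit pairs the 2 arrays of each line; without line as a block it called 0 pathway genes, and 38 rather than 1014 of all genes had an unadjusted p under 0.05. The titles carry no replicate numbers. Leaving out an array leaves no residual degree of freedom. Values near the filter level have compressed differences.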
